A study of Mus musculus with 6 samples.

Results

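The Fc receptor window is a stretch of 220 kb on mouse chromosome 1, from 172.8 to 173.02 Mb in the mm9 build, that holds the genes Fcrlb, Fcrla, Fcgr2b, Fcgr4 and Fcgr3. Its members are the MBD2 peaks of the deposited lists that share at least 1 bp with it, and 5 of the 164274 peaks in the series did. The window was chosen by its peaks in erythroblasts that overlap no stem cell peak, so their number there is a description and supports nothing. It was set against the 300 kb on each side, called the proximal flank (lower coordinates) and the distal flank.

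A peak marks DNA enriched by MBD2, a protein that binds DNA methylated at CG dinucleotides. The cell types were hematopoietic stem cells (HSC), the common myeloid progenitors (CMP) that come from them and, from the red cell lineage before the nucleus is lost, erythroblasts (ERY). Each had 1 MBD2-enriched library and 1 supernatant library. The supernatant libraries are not analysed here. All samples are labelled as female C57BL/6 mice, with no genetic change or treatment of the animals given. HSC and CMP came from adult bone marrow after lineage depletion, HSC sorted as Sca-1+ c-kit+ and CMP as Sca-1- c-kit+. The source and sorting of the ERY cells are not stated in the labels, and peak lists offer no marker with which the labelled cell types could be checked. In all, 85797 peaks were listed for HSC, 50638 for CMP and 27839 for ERY, and read depth is unknown. Each cell type was measured once, so differences between them have no replicate check and none was tested. A position without a peak was not shown to be unmethylated.

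The genes of the window encode receptors for the constant (Fc) part of immunoglobulin G and relatives of them. Fcgr2b encodes an inhibitory Fc receptor of B cells and myeloid cells. Fcgr3 and Fcgr4 encode activating receptors of myeloid cells, which signal through the common gamma chain encoded by Fcer1g, and Fcgr3 also serves natural killer cells. Fcrla and Fcrlb encode Fc receptor-like proteins that stay inside the cell and are known mainly from B cells. In the RefSeq gene table, which belongs to the GRCm38.p6 assembly, the order along the chromosome was Fcrlb, Fcrla, Fcgr2b, Fcgr4 and Fcgr3. A single other protein-coding gene, Gm39701, stood among them, between Fcrla and Fcgr2b. The nearest protein-coding neighbours were Dusp12 before Fcrlb and Cfap126 after Fcgr3, and Fcer1g followed Fcgr3 with 7 protein-coding genes between them. The same table lists 25 tRNA genes from the start of Fcgr4 to Cfap126. Because the peaks are on mm9 and the table is not, no peak was assigned to a gene, promoter or exon, and each peak is given by position alone.

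The CG dinucleotides in a promoter are the sites that MBD2 pulldown can report on, and the promoters of the 3 IgG receptors are shown for them. Each window runs from 250 bases before to 50 bases after the gene start, 5′ to 3′ on the gene's strand, from RefSeq on GRCm38.p6, with every CG in capitals. Fcgr2b is at chr1:170976022-170976321 (minus strand), Fcgr4 at chr1:171018676-171018975 (plus strand) and Fcgr3 at chr1:171059354-171059653 (minus strand). These positions are not comparable with those of the mm9 peaks.
Fcgr2b: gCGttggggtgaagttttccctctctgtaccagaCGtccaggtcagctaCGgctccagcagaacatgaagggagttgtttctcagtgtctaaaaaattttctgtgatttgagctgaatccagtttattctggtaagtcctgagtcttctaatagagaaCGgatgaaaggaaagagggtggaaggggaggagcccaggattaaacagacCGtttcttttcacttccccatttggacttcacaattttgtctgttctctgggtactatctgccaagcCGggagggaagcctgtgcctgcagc
Fcgr4: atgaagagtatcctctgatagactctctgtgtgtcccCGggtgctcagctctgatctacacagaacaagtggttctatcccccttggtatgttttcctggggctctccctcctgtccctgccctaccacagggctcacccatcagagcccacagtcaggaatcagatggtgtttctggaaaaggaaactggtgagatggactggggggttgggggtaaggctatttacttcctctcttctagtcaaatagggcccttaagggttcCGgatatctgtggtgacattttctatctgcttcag
Fcgr3: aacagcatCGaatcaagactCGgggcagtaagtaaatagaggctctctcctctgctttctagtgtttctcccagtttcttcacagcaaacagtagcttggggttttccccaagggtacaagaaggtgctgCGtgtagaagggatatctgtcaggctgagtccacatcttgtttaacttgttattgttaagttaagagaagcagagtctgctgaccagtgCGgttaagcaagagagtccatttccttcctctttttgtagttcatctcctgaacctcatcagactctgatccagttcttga

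The promoter windows of the 5 genes held between 1 and 6 CG. CG is its own reverse complement, so 1 count serves both strands. Fcgr2b had 6 CG in 300 bases, Fcgr3 had 4 in the window shown and 3 in its other listed window, Fcgr4 had 2, and Fcrla and Fcrlb had 1 each. The median of all 32851 RefSeq promoter windows was 7 CG, with quartiles of 3 and 20. Of those windows, 47.9% had no more CG than Fcgr2b, 38.0% no more than Fcgr3, 23.3% no more than Fcgr4 and 14.1% no more than Fcrla or Fcrlb. The members thus all lay below the median, Fcgr2b close to it and Fcrla and Fcrlb farthest from it. The ratio of observed to expected CG was 0.353 for Fcgr2b, 0.263 for Fcgr3, 0.103 for Fcgr4, 0.0747 for Fcrla and 0.0495 for Fcrlb.

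Other Fc receptor and signalling genes mostly had 7 CG or fewer as well. Of 16 such genes, 15 had a promoter window in the table (all but Lyn), and the first listed window of 13 of the 15 had 7 CG or fewer, against 51.4% of all windows. Fcgr1, the high-affinity IgG receptor, had 1 CG, as did Fcer1a, the IgE-binding chain of the high-affinity IgE receptor. Fcer1g had 7. The exceptions by the first listed window were Syk and Plcg2. Syk, a tyrosine kinase that acts downstream of activating Fc receptors, had 31 CG there and 2 in its other listed window. Plcg2, a phospholipase of the same pathway, had 21.

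**Figure D1:**
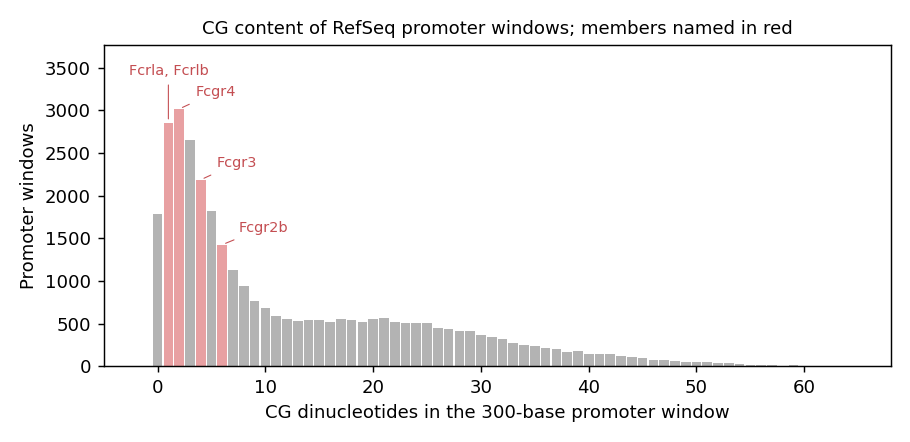
Number of CG dinucleotides in each 300-base RefSeq promoter window (x axis) against the number of windows with that count (y axis), with the bars that hold the first listed window of each member in red. The members hold between 1 and 6 CG, all below the median of 7 over all windows.

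The window held few peaks at any stage. None of its 4 merged regions (overlapping peaks of the 3 lists joined) had a peak in all 3 lists, with an exact 95% interval of 0 to 60.2%. Over the genome the share was 28.5%. That the window has no such region was largely set by its choice for ERY peaks that overlap no HSC peak. HSC had 2 peaks, CMP 1 and ERY 2. A gain of erythroblast peaks therefore held for positions, since both ERY peaks overlapped no HSC peak, but not for the number of peaks, which was 2 in ERY and 2 in HSC. The HSC peaks and the CMP peak overlapped no ERY peak in their turn, which for the HSC peaks is the same fact.

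The first HSC peak lay at chr1:172836710-172837333 (624 bp) and overlapped no peak of CMP or ERY. The second HSC peak lay at chr1:172870987-172871489 (503 bp), entirely inside the single CMP peak at chr1:172870927-172871671 (745 bp). These positions make 1 region with a peak in HSC alone and 1 shared by HSC and CMP. The ERY peaks lay at chr1:172869052-172869947 (896 bp) and chr1:172872011-172873639 (1629 bp), and neither overlapped a peak of HSC or CMP.

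The ERY peaks stood on either side of the region shared by HSC and CMP. The first ERY peak ended 1039 bp before the HSC peak, and the second began 521 bp after it. Measured to the wider CMP peak, the gaps were 979 and 339 bp. The ERY peaks were 2063 bp apart, and the whole group, from the start of the first to the end of the second, spanned 4588 bp. Between the centres of the HSC peak and the ERY peaks the distances were 1738.5 bp (first) and 1587 bp (second).

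**Figure D2:**
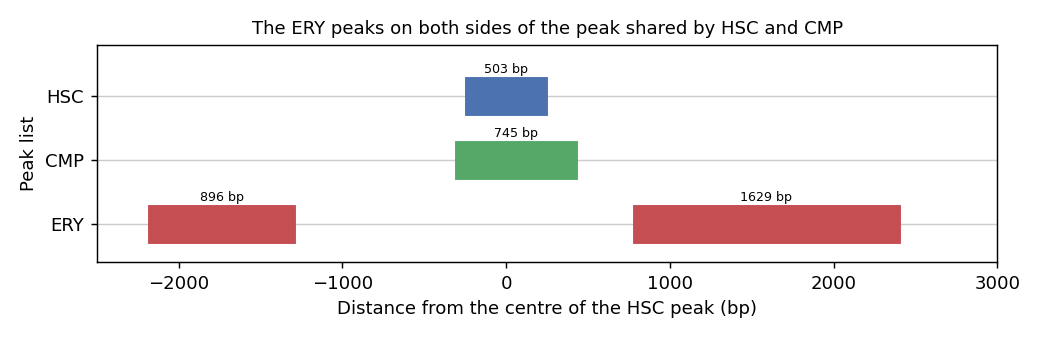
Peaks of the 3 lists around the HSC peak shared with CMP, as distance in bp from the centre of that HSC peak (x axis), 1 row per list, with each peak drawn to scale and its width printed above it. The ERY peaks of 896 and 1629 bp lie on either side of the HSC peak of 503 bp and the CMP peak of 745 bp, without touching them.

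This arrangement was rare in the lists, although the window was chosen for its ERY peaks and the count below describes it without a test. Of 59278 HSC peaks that overlap no ERY peak, 203 (0.342%) had within 2 kb an ERY peak that overlaps no HSC peak. In 1 of them, the one in the window, such ERY peaks lay within 2 kb on both sides. Within 5 kb on both sides the number was 2, and within 10 kb it was 8. The distances were set after the peaks of the window were seen, and within 1 kb the number was 0, the window included. Among all 1303 ERY peaks without an HSC overlap, the median gap to the nearest HSC peak was 7610 bp, and 22.3% had one within 2 kb. The 26536 ERY peaks that do overlap an HSC peak had another HSC peak within 2 kb in 33.4% of cases, so closeness to an HSC peak was by itself common. Of the 1013 merged regions with a peak in ERY alone, 36 (3.55%) had another such region within 5 kb, as both in the window did.

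The ERY peaks were wide for their list and the earlier ones narrow. The ERY peak of 1629 bp was wider than all but 2.13% of ERY peaks, and among the 1303 ERY peaks without an HSC overlap it had rank 3 by width, where the median width was 681 bp. The ERY peak of 896 bp was exceeded by 26.1% of the ERY list and by 9.90% of that set. In contrast, 70.3% of HSC peaks were wider than the first HSC peak of the window and 85.8% wider than the second, and 62.7% of CMP peaks were wider than the CMP peak. Median widths over the lists were 748 bp (HSC), 818 bp (CMP) and 788 bp (ERY). Both HSC peaks and the CMP peak were thus below the median of their list, and both ERY peaks above theirs. A width above the ERY median was not particular to the window. In the flanks, all ERY peaks except those of 776, 767 and 621 bp exceeded it. The widest ERY peak of the flanks had 1557 bp, and 2.62% of the ERY list was wider. Widths below the HSC and CMP medians were not particular to the window either, since some flank peaks of both lists had them. Most HSC and CMP peaks of the flanks were wider than those medians.

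Covered length followed the widths. HSC peaks covered 1127 bp of the window, the CMP peak 745 bp and the ERY peaks 2525 bp, so that the ERY total was 2.24 times that of HSC and the CMP total 0.661 times. Over the genome the ERY total was 0.330 times that of HSC. Of the 11003 windows of 220 kb with a peak in any list, 2.91% had at least as many bases covered in ERY as in HSC. All 2525 ERY bases of the Fc receptor window belong to the 2 peaks for which it was chosen. Its ratio and its place in this background are therefore a description and support nothing. These ratios are of regions called separately in each list. The covered part of the window was small in every list, at 0.512% (HSC), 0.339% (CMP) and 1.15% (ERY).

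The overlaps between lists are counts of 1 or 2 peaks, with exact (Clopper-Pearson) 95% intervals that cover counting error only. Of 2 HSC peaks in the window, 1 overlapped a CMP peak (interval 1.26 to 98.7%), against 57.1% of all HSC peaks. Neither HSC peak overlapped an ERY peak (0 of 2, interval 0 to 84.2%), against 30.9% of all HSC peaks, and the CMP peak did not either (0 of 1, 0 to 97.5%), against 50.7% of all CMP peaks. The 0 of 2 HSC peaks with an ERY overlap restates that the 2 ERY peaks overlap no HSC peak. The window was chosen for that, so this comparison supports nothing. The intervals for HSC peaks in CMP and for the CMP peak in ERY hold the genome's share. With so few peaks no departure from it was detectable. Of the ERY peaks, 2 of 2 overlapped no HSC peak, against 4.68% of all ERY peaks, and the window was chosen for this. The ERY peaks make 2 of the 4 merged regions in the window, against 1.16% of all merged regions with a peak in ERY alone.

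Windows with as many ERY peaks outside the HSC list were uncommon. In a grid of 11744 windows of 220 kb over the span of peaks on each chromosome, 1.30% held 2 or more ERY peaks that overlap no HSC peak. Counted singly, 126 windows held 2, 22 held 3 and 5 held 4, so the Fc receptor window has the count of many others and not the highest. As few HSC peaks as here were less rare, since 29.3% of windows had 2 or fewer. The median window had 5 HSC peaks, 3 CMP peaks and 1 ERY peak. Of the 1363 windows with 2 HSC peaks, as here, 11.1% held 2 or more ERY peaks. In 0.514% of the 1363, a count of 7 windows, there were 2 or more ERY peaks and neither HSC peak overlapped one. The Fc receptor window was chosen for such ERY peaks, and they leave its HSC peaks without an ERY overlap. Its place in these counts is therefore a description and supports nothing.

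**Figure D3:**
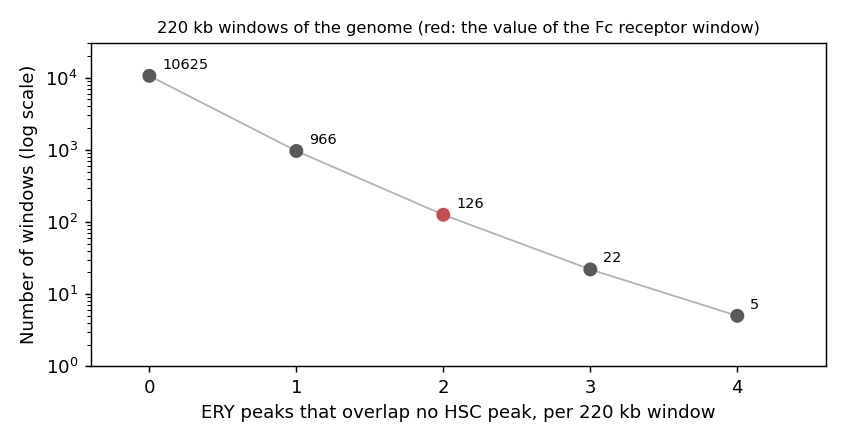
Number of 220 kb windows of the genome (y axis, log scale) by the number of ERY peaks in them that overlap no HSC peak (x axis), with the value of the Fc receptor window in red. Most windows, 10625, hold none, and 126 hold 2 as the Fc receptor window does.

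Most of the window had no peak in any list. After the second ERY peak, no list had a peak from chr1:172873640-173039718, a run of 166079 bp that takes up 66.5% of the window's length and ends beyond it. Runs at least as long made up 2.69% of the 87493 runs between neighbouring merged regions, whose median was 10599 bp. In the single lists the run without a peak was 168229 bp (HSC), 177663 bp (CMP) or 175629 bp (ERY) long. Runs at least that long made up 2.77% of those in HSC, 6.22% in CMP and 13.9% in ERY, where peaks are fewer. The run before the first HSC peak was 55158 bp long, of which 36710 bp lay in the window and the rest in the proximal flank. Between that peak and the first ERY peak, 31718 bp were free of peaks. How well reads can be placed uniquely in these runs was not examined.

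The flanks were richer in peaks than the window in all 3 lists, and they differed from each other. In the window, HSC had 9.09 peaks per Mb, CMP 4.55 and ERY 9.09. The proximal flank had 30.0 (HSC), 26.7 (CMP) and 23.3 (ERY) peaks per Mb, and the distal flank 96.7 (HSC), 60.0 (CMP) and 30.0 (ERY). Over chromosome 1 the values were 27.3 (HSC), 15.7 (CMP) and 8.35 (ERY). For HSC and CMP the window was thus below chromosome 1, and for ERY it was 9.09 against 8.35, so the ERY density of the window was near that of the chromosome. Relative to both flanks together, the window had 0.144 times the density for HSC, 0.105 times for CMP and 0.341 times for ERY. Counts in the window are 1 or 2 peaks, so these densities carry wide counting error. Both ERY peaks are those for which the window was chosen, so its ERY density and ratio are a description only.

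**Figure D4:**
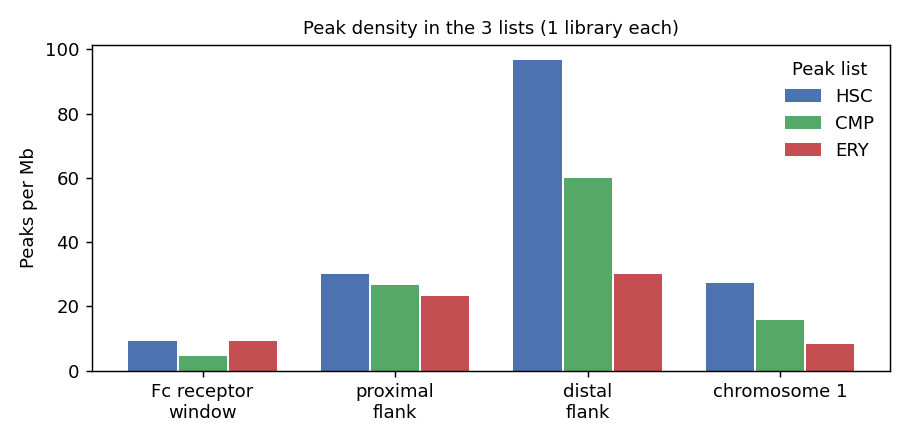
Peaks per Mb (y axis) in the Fc receptor window, its proximal and distal flanks of 300 kb each and chromosome 1, with 1 bar for each list and no error bars, since each list comes from 1 library. The bars of the window are 9.09, 4.55 and 9.09, below both flanks in each list.

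In the proximal flank nearly every position was shared. It had 9 HSC, 8 CMP and 7 ERY peaks. Of its 9 merged regions, 7 had a peak in all 3 lists (77.8%, interval 40.0 to 97.2%), against 28.5% over the genome. There, 8 of 9 HSC peaks overlapped a CMP peak (88.9%, interval 51.8 to 99.7%), against 57.1% of all HSC peaks. An ERY peak was overlapped by 7 of the 9 (77.8%, 40.0 to 97.2%), against 30.9% of all HSC peaks. The intervals cover counting error only, for neighbouring peaks of 1 library, and a departure from the genome's share was not tested. All 7 ERY peaks overlapped an HSC peak, as did 95.3% of all ERY peaks. The widest HSC peak of the proximal flank, chr1:172700598-172702320 (1723 bp), had counterparts of 1778 bp in CMP and 1557 bp in ERY. The last proximal region before the window, at chr1:172780527-172781551, also had a peak in all 3 lists. Covered length in ERY was 0.791 times that of HSC.

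The distal flank was denser, and its peaks were fewer at each later stage (29 HSC, 18 CMP and 9 ERY peaks). This fall was near that of the whole lists. CMP peaks were 62.1% of the HSC number and ERY peaks 31.0%, against 59.0% and 32.4% over the genome. Of its 29 merged regions, 10 had a peak in HSC alone (34.5%, against 40.7% over the genome) and 10 in HSC and CMP (34.5% against 26.4%). A peak in all 3 lists was found in 8 (27.6% against 28.5%), and in ERY alone in 1 (3.45% against 1.16%). HSC peaks overlapped a CMP peak in 19 of 29 cases (65.5%, interval 45.7 to 82.1%), against 57.1% of all HSC peaks. They overlapped an ERY peak in 8 of 29 (27.6%, 12.7 to 47.2%), against 30.9% of all HSC peaks. The ERY-alone peak was at chr1:173235250-173235870 (621 bp), narrower than 81.2% of ERY peaks. It was the single ERY peak of 16 in the flanks that overlapped no HSC peak (6.25%, against 4.68% of all ERY peaks). In the window it was 2 of 2, but the window was chosen for these, so the contrast with the flanks was set by the choice. The widest HSC peak there, chr1:173212471-173214307 (1837 bp), had a CMP and no ERY counterpart. The first distal peak after the window, chr1:173039719-173040124 (406 bp), was in HSC alone. Covered length in ERY was 0.316 times that of HSC, close to the 0.330 of the genome.

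**Figure D5:**
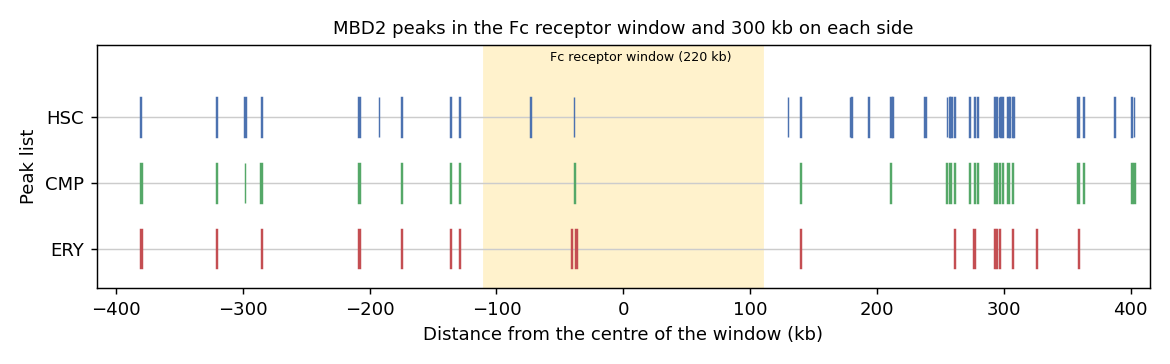
Peaks of the 3 lists in the Fc receptor window (shaded) and in 300 kb on each side, as distance in kb from the centre of the window (x axis), 1 row per list with 1 mark per peak. The right part of the window holds no peak in any list, 7 of the 9 merged regions of the left flank have a mark in all 3 rows, and the right flank holds 29 peaks (HSC), 18 (CMP) and 9 (ERY).

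Which positions counted as new in ERY depended on how near a peak may lie. With a gap of up to 500 bp taken as overlap, the CMP peak counted as kept in ERY, since it ends 339 bp before the second ERY peak. With up to 1 kb, a distance set after the peaks were seen, 1 ERY peak was absent from HSC in place of 2, and with up to 2 kb none was. Without the narrower 50% of each list, the window held 2 ERY peaks and 0 in both HSC and CMP.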

How the data were processed

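MBD2-bound DNA was sequenced as 36 bp single-end reads, which were used where they identified a place in the genome uniquely, per the labels' protocols. The authors deposited 1 peak list per enriched library, exported by a genome browser query per the file headers, on mm9 per the submitters' processing notes. Each list holds chromosome, start and end of each peak, and no score. Beyond position, the single property of a peak that could be compared is therefore its width. The names of the aligner and peak caller, the threshold and the control were not given in the labels or headers.

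Peaks were placed in the window or a flank when they shared 1 bp with it, and overlapped when they shared 1 bp. Overlapping or touching peaks of the 3 lists were merged into regions. Positions are printed 1-based. All peaks of the window are given, together with the ERY-alone peak, the widest HSC peaks and the peaks nearest to the window from the flanks. The members and gene lists were chosen with earlier results of these data known. The planned assignment of peaks to gene features was not run, because the gene table is on another assembly than mm9. Alternatives were the wider 50% of each list, other window and flank bounds, placement by the centre, and other overlap and merging distances. Scripts ran in Python 3.11.15 with matplotlib 3.10.9, scipy 1.17.1, pandas 2.3.3 and numpy 2.4.6. Overlap functions were tested on simulated data with known answers and checked against bedtools 2.31.1. Intervals are exact Clopper-Pearson at 95% and cover counting error only.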

Additional observations from a re-analysis of the deposited data

How the results depend on the processing

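Of 84 values under alternatives over 14 results, 50 kept within 1.5 times the value reported and 34 did not, and no density ratio of window to flanks changed side. With counts of 0 to 2, a single peak can move a value past that limit. In the wider 50% of each list the window held 0 peaks in HSC and 0 in CMP, so ratios to the flanks were 0 for both, 0 HSC peaks were kept in CMP, and 0 regions were in HSC alone or in HSC and CMP. That follows from the choice, since those peaks are below their lists' median widths. Widening the window by 20 kb on each side brought in neighbouring peaks and gave 4 HSC and 2 CMP peaks, ratios of 0.225 (HSC) and 0.165 (CMP), 2 HSC peaks kept in CMP, 1 HSC and 1 CMP peak kept in ERY, 2 regions in HSC alone and 1 in all 3 lists. Flanks of 150 kb gave ratios of 0.170 (CMP) and 0.545 (ERY). A gap of up to 500 bp as overlap gave 1 CMP peak kept in ERY, and merging across 500 bp gave 1 region in all 3 lists, 1 in ERY alone and 0 in HSC and CMP.

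Chosen after seeing the data, a gap of up to 1 kb gave 1 ERY peak absent from HSC and 1 HSC and 1 CMP peak kept in ERY, and up to 2 kb gave 0, 1 and 1. Merging across 1 kb gave 1 region in all 3 lists, 0 in ERY alone and 0 in HSC and CMP. Against the distal flank alone the HSC ratio was 0.0940, and against the proximal flank alone 0.303 (HSC) and 0.170 (CMP). Except where the construction is named, the cause was not tested. No paired analysis was possible because each cell type has 1 library. For the same reason no replicate could be left out. Read depth is unknown, so how far the sensitivity of each list sets its peaks was not tested.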
